A study of Mus musculus with 21 samples.

Results

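The cadherin superfamily and its catenin partners were examined in the cortex of mice 24 h after high-frequency head impact (HF-HI) or a sham procedure. Genes were taken by symbol: numbered Cdh genes, Pcdh genes, Celsr1 to Celsr3, Fat1 to Fat4, Dchs genes and Ctnn genes. Of the 5544 genes in the deposited table, 32 met this rule, where the GENCODE annotation lists 109 protein-coding genes of these families, and the others were not analysed here. Among the 32 were 5 clustered protocadherins, which are described apart because genes of a cluster share exons.

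Classical cadherins are single-pass membrane proteins that bind the same or a related cadherin on the facing cell. Their cytoplasmic tails hold p120-type catenins (delta-catenins) near the membrane and beta-catenin further along, and alpha-catenins couple the complex to actin. Beta-catenin is also the transcriptional coactivator of canonical Wnt signaling. Protocadherins lack the classical catenin-binding tail and give neurons part of their surface identity, while Fat and Celsr proteins act in planar cell polarity and in dendrite and axon patterning. In cortex these proteins are known for synapse formation, spine shape and dendrite branching.

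The sham group held 10 and the HF-HI group 11 male C57BL/6 mice, 12 weeks old by their labels and marked WT (wild type) in both groups, with one cortex library per mouse. HF-HI mice received repeated head impacts on successive days under isoflurane, and tissue was taken 24 h after the last one. Sham mice were handled and anesthetized in the same way without impacts, so both groups carry the anesthesia. The deposited values are variance-stabilized log2 values, in which a difference of 1 is about a doubling for well-expressed genes and understates the change of genes with few reads. They are not per length, so levels were compared between groups and not between genes. Every difference below is HF-HI minus sham on this scale, tested with limma's moderated test over all 5544 genes with Benjamini-Hochberg adjustment, and a gene is called at an adjusted p under 0.05. Whole cortex was sequenced, so fewer cells of a type and less RNA per cell cannot be told apart.

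Some properties of the libraries moved with the groups. How steeply the values of a library climbed with the GC content of exons, in log2 units per 10% GC, lay between -0.231 and 0.00582 in sham and between -0.0385 and 0.161 in HF-HI. Its part in each difference was not tested as a cause, but each member is also given from a fit in which this trend was removed from every library. Depth relative to the median library ran from 0.58 to 1.26 in sham and from 0.548 to 1.64 in HF-HI, and total depth is unknown. All 10 neuron markers of a marker list were in the table, and their summed level ran from 16.72 to 16.88 in HF-HI and from 16.61 to 16.73 in sham. These ranges overlapped at their ends. Of the 10, 7 were called higher and 1 lower, where 32.6% of all genes were higher and 33.6% lower. Sums were taken over 2 to the power of the values, so the highest markers of a list weighed most. Among the astrocyte markers that was Slc1a2, with a mean of 15.77 in HF-HI and 15.7 in sham. The ranges of the summed level overlapped as well for the 8 astrocyte markers (16.07 to 16.21 in HF-HI, 16.03 to 16.15 in sham) and the 8 oligodendrocyte markers (15.32 to 16.01 and 15.29 to 16.01). They also overlapped for 2 of 8 microglia markers (10.42 to 10.64 and 10.53 to 10.72), 3 of 8 endothelial and mural markers (11.02 to 11.23 and 11.09 to 11.27) and 5 of 6 inhibitory neuron markers (12.74 to 13.19 and 12.79 to 13.10). The same held for 3 of 5 oligodendrocyte precursor markers (10.27 to 10.47 and 10.24 to 10.54) and for Ttr, the one of 5 choroid plexus markers in the table (6.857 to 13.35 and 6.163 to 11.51). None of 6 fibroblast and meningeal markers was in the table. Of the markers in the table, 5 astrocyte markers were called (3 higher, 2 lower), 2 oligodendrocyte and 2 inhibitory neuron markers were higher, and the precursor, microglia and endothelial lists each had 1 higher and 1 lower. Ttr was not called, and the microglia markers Cx3cr1, P2ry12 and Tmem119 were not among the genes analysed. The part of these cell types in the results was not tested.

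Of the 32 members, 19 were called, 9 higher and 10 lower in HF-HI, and 13 were not. That is 59.4% of the members, where 66.3% of all genes were called, 32.6% higher and 33.6% lower. The median difference of the members was 0.0044, against -0.0086 over all genes, and their median absolute difference was 0.164, against 0.156. The share called among the members was near that of the table. Sham and HF-HI libraries were fully separate for 4 members, Ctnnd2, Ctnna2, Pcdhgc3 and Pcdhgc5, where 13.5% of all genes had groups that did not overlap. With the GC trend removed, 20 members were called, 12 higher and 8 lower, where 60.2% of all genes were called. Calls with the same direction in both fits were 15. The calls of Cdh7, Cdh11, Pcdh1 and Pcdhb19 were lost with the trend removed, and Cdh2, Cdh10, Pcdh9, Pcdh10 and Pcdhac2 were called only then.

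**Figure D1:**
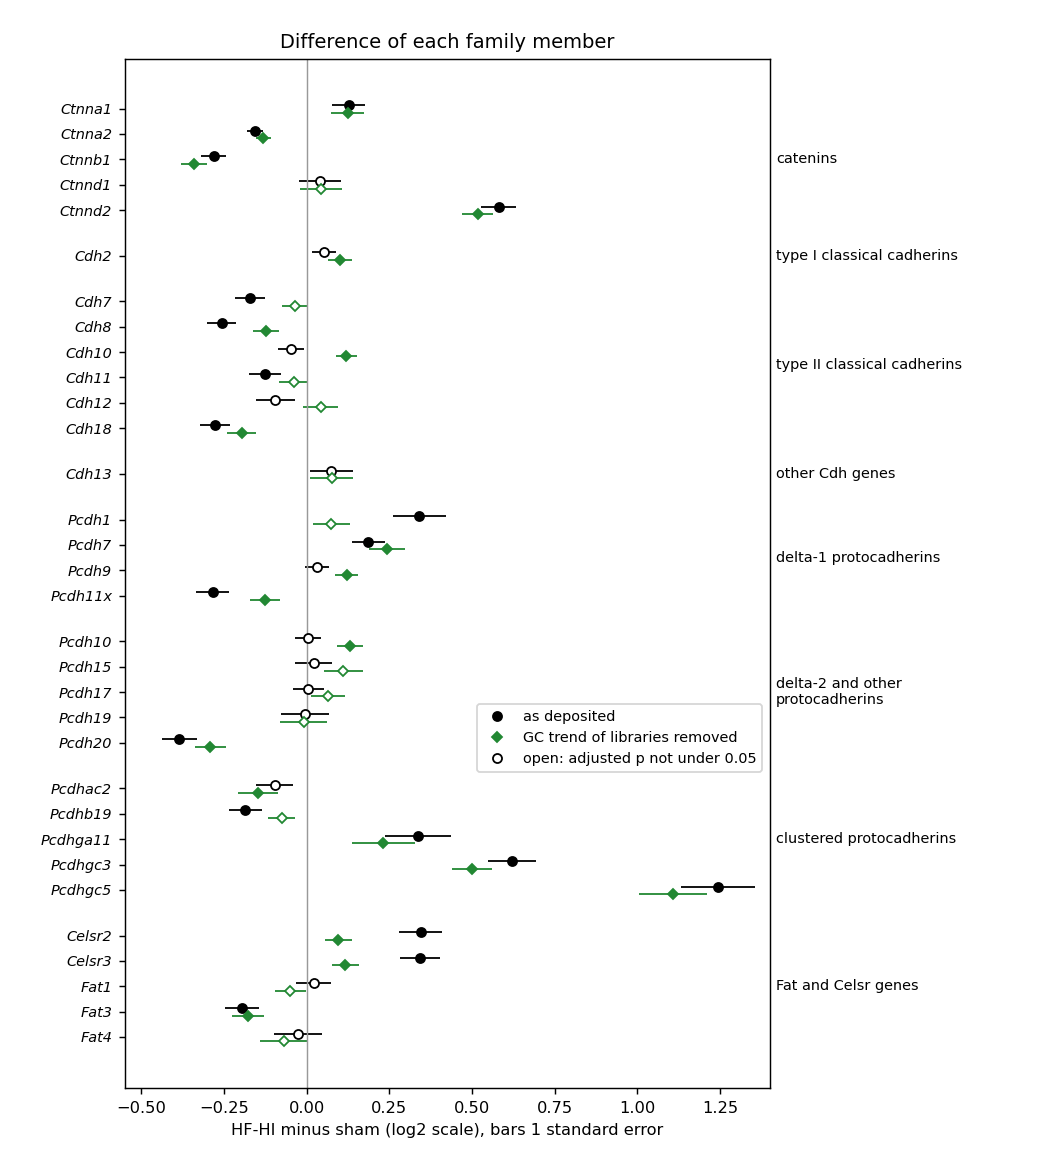
Difference between HF-HI (n = 11) and sham (n = 10) for the 32 members, on the log2 scale, with bars of 1 standard error. Circles are values as deposited, diamonds those after removal of the GC trend, and filled symbols have an adjusted p under 0.05. Pcdhgc5 lies farthest to the right at 1.24, Pcdh20 farthest to the left at -0.39.

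The catenins moved in different directions. Ctnnd2, which encodes the neuronal delta-catenin of the postsynaptic density, was the most raised of them, while Ctnnb1, which encodes beta-catenin, and Ctnna2, the neuronal alpha-catenin, were lower. Ctnnd2 (ENSMUSG00000022240, chromosome 15 from 30172593 to 31029341 of GRCm38) lay between 10.58 and 11.06 in sham, with a median of 10.77, and between 11.25 and 11.51 in HF-HI, with a median of 11.38. All 11 HF-HI libraries were above the highest sham library. The difference was 0.58 (standard error 0.0532, adjusted p = 6.24e-09 from limma), and 0.52 with the GC trend removed. Ctnnb1 (ENSMUSG00000006932, chromosome 9 from 120929216 to 120960507) lay between 12.48 and 12.75 in sham, with a median of 12.66, and between 12.22 and 12.51 in HF-HI, with a median of 12.34. Of the HF-HI libraries, 9 were below the lowest sham library, and the ranges met only at their ends. Its difference was -0.28 (standard error 0.0382, adjusted p = 1.29e-06 from limma). Removing the GC trend took it to -0.34, and the groups then no longer overlapped.

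Ctnna2 changed by less, but its libraries were the least spread of all members within each group. It lay between 11.05 and 11.15 in sham and between 10.88 and 11.02 in HF-HI, with medians of 11.11 and 10.94, so every HF-HI library was below every sham library. The difference was -0.16 (standard error 0.0232, adjusted p = 4.13e-06 from limma). Ctnna1, the alpha-catenin typical of epithelia, went the other way, from a median of 9.208 in sham (8.904 to 9.375) to 9.341 in HF-HI (9.207 to 9.426). Its difference of 0.13 (adjusted p = 0.0267) was near the threshold and was lost without sham replicate 2 (0.094, adjusted p = 0.0555) or sham replicate 3 (0.11, adjusted p = 0.0519). The call of Ctnna1 was also lost with the Wilcoxon test (adjusted p = 0.0537), with library medians centred (0.075, adjusted p = 0.175), with quantile normalization (0.091, adjusted p = 0.103) and with GC and length trends removed (0.10, adjusted p = 0.0849). Ctnnd1, which encodes p120-catenin, was not called, at 0.041 (adjusted p = 0.581), and its sign turned to -0.011 when library medians were centred. In sham, replicates 1 to 4 lay between 10.18 and 10.30 and the others between 9.81 and 10.05, and in HF-HI the values ran from 9.738 to 10.23.

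For paralogs, the difference between both genes was taken within each library. The 4 pairs were picked after their values were seen, so their shifts are given as a description, with no test. In HF-HI, Ctnna1 minus Ctnna2 was -1.62 ± 0.102 (SD, n = 11), and in sham it was -1.90 ± 0.173 (SD, n = 10), a shift of 0.28 (standard error 0.0628). Ctnnd2 minus Ctnnd1 came to 1.27 ± 0.160 (SD, n = 11) in HF-HI, against 0.727 ± 0.269 (SD, n = 10) in sham, a shift of 0.54 (standard error 0.0978). The groups overlapped in both. After removal of the GC trend the shifts were 0.26 and 0.47.

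**Figure D2:**
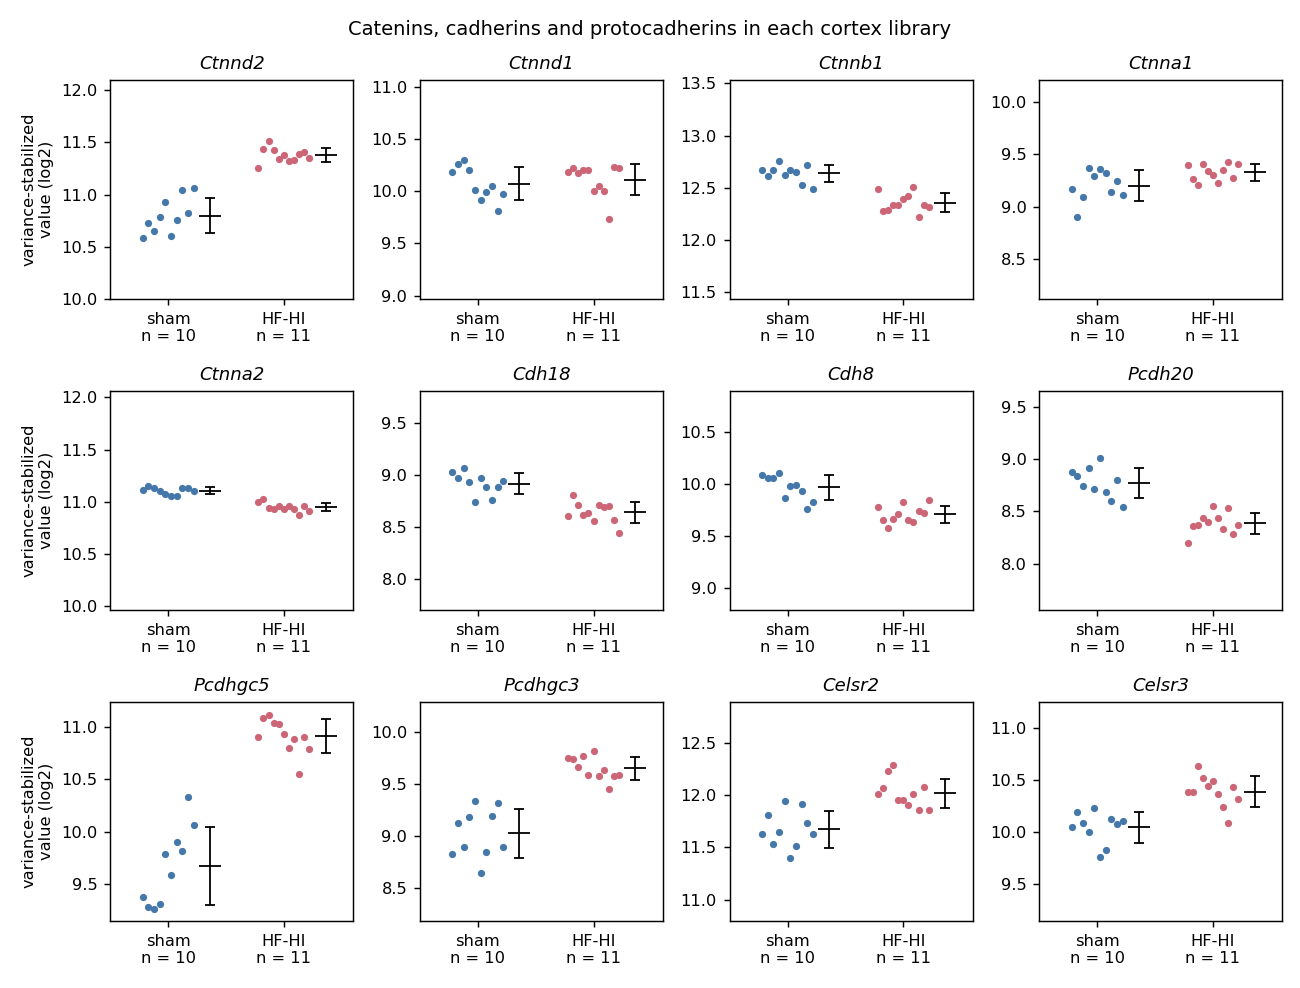
Variance-stabilized value (log2) of 12 members in each library, sham (n = 10) in blue and HF-HI (n = 11) in red, with the mean and SD in black; every panel spans the same height. The groups stand apart for Ctnnd2, Ctnna2, Pcdhgc5 and Pcdhgc3, and the sham libraries of Pcdhgc5 spread from 9.26 to 10.33.

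Promoters are shown for 4 genes, the catenins Ctnnd2 and Ctnnb1 that moved apart and the seven-pass cadherins Celsr3 and Celsr2 that moved together, as RefSeq gives them for GRCm38.p6. Each is a 300-base window around a RefSeq start, which can differ from the GENCODE gene positions printed here. Ctnnb1 has 2 RefSeq starts, of which the first is printed. Capitals mark GC boxes (GGGCGG), TCF/LEF cores (CTTTGA or CTTTGT) and cAMP response elements (TGACGTCA), searched on both strands.

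Ctnnd2, chr15:30172284-30172583, plus strand: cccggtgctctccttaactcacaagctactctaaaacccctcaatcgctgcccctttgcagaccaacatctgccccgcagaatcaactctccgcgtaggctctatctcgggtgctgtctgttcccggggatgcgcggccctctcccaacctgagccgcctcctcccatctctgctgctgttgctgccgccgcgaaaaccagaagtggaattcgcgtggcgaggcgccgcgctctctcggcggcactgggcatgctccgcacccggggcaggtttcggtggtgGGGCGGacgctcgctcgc
Ctnnb1, chr9:120933150-120933449, plus strand: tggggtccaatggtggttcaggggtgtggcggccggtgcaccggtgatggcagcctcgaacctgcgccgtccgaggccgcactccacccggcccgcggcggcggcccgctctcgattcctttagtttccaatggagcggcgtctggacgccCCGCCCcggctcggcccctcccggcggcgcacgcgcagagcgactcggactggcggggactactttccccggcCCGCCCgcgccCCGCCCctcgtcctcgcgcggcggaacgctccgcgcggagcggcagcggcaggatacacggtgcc
Celsr3, chr9:108825795-108826094, plus strand: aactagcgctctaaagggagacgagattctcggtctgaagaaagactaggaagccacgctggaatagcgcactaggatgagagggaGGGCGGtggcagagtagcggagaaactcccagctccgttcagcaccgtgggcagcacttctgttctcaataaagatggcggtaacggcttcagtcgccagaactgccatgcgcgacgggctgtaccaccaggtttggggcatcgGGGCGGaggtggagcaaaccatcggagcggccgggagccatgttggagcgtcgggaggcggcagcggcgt
Celsr2, chr3:108415530-108415829, minus strand: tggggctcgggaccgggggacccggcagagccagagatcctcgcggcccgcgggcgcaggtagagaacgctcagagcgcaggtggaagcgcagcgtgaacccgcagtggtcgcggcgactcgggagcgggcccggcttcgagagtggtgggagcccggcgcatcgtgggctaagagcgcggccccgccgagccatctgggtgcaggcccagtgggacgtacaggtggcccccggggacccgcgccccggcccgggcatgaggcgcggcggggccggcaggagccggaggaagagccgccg

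The TCF/LEF core is the element through which beta-catenin acts on its target genes, and none of the 4 windows holds it. It was found in 7.69% of the 26 promoters that RefSeq gives for 21 of the members, at Cdh7 and Pcdh7, and in 31.2% of all 32851 promoters. Member promoters were richer in GC than the rest (median 62.3% against 52.7%), and GC content bears on how often such letters occur. A GC box was in 34.6% of member promoters and in 35.7% of all, among them those of Ctnnd2, Ctnnb1 and Celsr3 above. No member promoter held the cAMP response element, which 1.79% of all promoters hold. A match is a description of letters, and no binding was measured.

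Classical cadherins were lower or not called. Cdh2, which encodes N-cadherin and is the one type I cadherin among the members, lay between 10.31 and 10.58 in sham, with a median of 10.48, and between 10.44 and 10.66 in HF-HI, with a median of 10.52. The ranges overlapped over most of their length, and the difference was 0.053 (standard error 0.0364, adjusted p = 0.198 from limma). It was called at 0.10 (adjusted p = 0.0196) with the GC trend removed. Of the 6 type II cadherins, 4 were lower and none was higher, where 33.6% of all genes were lower, and their median difference was -0.15. After removal of the GC trend 2 were lower and 1 higher, with a median of -0.037.

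Cdh18 and Cdh8, type II cadherins of cortical neurons, had the largest decreases of the cadherins. Cdh18 (ENSMUSG00000040420, chromosome 15 from 22549022 to 23474418) had a median of 8.935 in sham (8.741 to 9.068) and of 8.634 in HF-HI (8.440 to 8.810). It was below the lowest sham library in 10 of 11 HF-HI libraries. The difference was -0.28 (standard error 0.0449, adjusted p = 1.31e-05 from limma), and -0.20 with the GC trend removed. Cdh8 (ENSMUSG00000036510, chromosome 8 from 99024471 to 99416471) had a median of 9.980 in sham (9.754 to 10.10) and of 9.709 in HF-HI (9.574 to 9.849). In 8 HF-HI libraries it was below every sham library. Its difference was -0.26 (standard error 0.0439, adjusted p = 2.44e-05), and -0.12 with the GC trend removed, still past the threshold.

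The calls of Cdh7, Cdh11 and Cdh10 changed with the GC trend. Cdh7 (-0.17, adjusted p = 0.00175) and Cdh11 (-0.13, adjusted p = 0.0229) were lower, but their differences were -0.035 and -0.039 and not called with the trend removed. Cdh10 (-0.047, adjusted p = 0.308) and Cdh12 (-0.095, adjusted p = 0.160) were not called. With the trend removed Cdh10 turned to 0.12 and was called (adjusted p = 0.00249), and Cdh12 turned to 0.043 without a call. When library medians were centred, both were called as lower (-0.099 and -0.15, adjusted p = 0.0443 and 0.0329). The exons of these 6 genes are poor in GC, from 36.61% in Cdh10 to 42.99% in Cdh18, where the median of the table is 47.6%. Cdh13, which encodes T-cadherin, a cadherin held by a lipid anchor without a cytoplasmic tail, lay between 9.046 and 9.445 in sham (median 9.143) and between 8.908 and 9.474 in HF-HI (median 9.304). The HF-HI range contained the sham range, and the difference was 0.075 (standard error 0.0650, adjusted p = 0.315).

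Delta-1 protocadherins, which have longer conserved tails than delta-2 members, were called in both directions. Pcdh1 (ENSMUSG00000051375, chromosome 18 from 38185914 to 38212053) had a median of 10.47 in sham (10.20 to 10.84) and of 10.81 in HF-HI (10.43 to 11.10). The ranges overlapped, with 5 HF-HI libraries above every sham library. The difference was 0.34 (standard error 0.0795, adjusted p = 6.83e-04 from limma). Pcdh1 has the highest exonic GC content of the members, 59.18%, and with the GC trend removed its difference was 0.075 and not called. Pcdh11x (ENSMUSG00000034755, chromosome X from 120290259 to 120910619) had a median of 9.726 in sham (9.545 to 9.922) and of 9.391 in HF-HI (9.292 to 9.626). In 8 HF-HI libraries it was below the sham range. Its difference was -0.28 (standard error 0.0505, adjusted p = 3.92e-05), and -0.13 and still called with the trend removed. Pcdh7 rose by 0.19 (adjusted p = 0.00256), and by 0.24 with the trend removed (adjusted p = 4.68e-04). Pcdh9 was not called as deposited (0.031, adjusted p = 0.459) and was called at 0.12 with the trend removed.

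Among the 5 delta-2 and other non-clustered protocadherins, 1 was called, where 66.3% of all genes were called. Pcdh20 (ENSMUSG00000050505, chromosome 14 from 88464743 to 88471396) had the largest decrease of all members. It had a median of 8.771 in sham (8.546 to 9.011) and of 8.372 in HF-HI (8.196 to 8.548), and 10 of 11 HF-HI libraries were below the lowest sham library. The difference was -0.39 (standard error 0.0525, adjusted p = 1.37e-06 from limma), and -0.29 with the GC trend removed. The other 4 were close to 0: Pcdh10 (0.0040), Pcdh15 (0.021), Pcdh17 (0.0049) and Pcdh19 (-0.0056), with adjusted p from 0.754 to 0.949. Pcdh19 is the X-linked gene of a female-limited epilepsy, and Pcdh15 is best known from the tip links of inner ear hair cells. Pcdh10 was called at 0.13 (adjusted p = 0.00717) with the trend removed. The signs of Pcdh10, Pcdh15 and Pcdh17 turned when library medians were centred (-0.048, -0.031 and -0.047), without a call.

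Clustered protocadherins come from 3 gene clusters side by side on chromosome 18. In the alpha and gamma clusters each gene has its own first exon, which encodes the outer part, the membrane span and a short tail, and is spliced to constant exons shared by the cluster. Each beta gene stands alone. Of 56 annotated clustered genes, 5 were in the table: Pcdhac2, Pcdhb19, Pcdhga11, Pcdhgc3 and Pcdhgc5. The exons of the gamma members Pcdhga11, Pcdhgc3 and Pcdhgc5 have 2119 bases in common, which is 44.6%, 38.5% and 27.8% of their annotated exonic length. In Pcdhac2, 48.6% of the exonic length is shared with other clustered genes, and in Pcdhb19 none of it is. Reads from shared exons were divided among the genes by the counting of the authors, so the gamma values are not independent of each other.

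All 3 gamma members, which share exons and so are not independent, were higher, where 32.6% of all genes were higher. Pcdhgc5 (ENSMUSG00000102543, chromosome 18 from 37819513 to 37841873), a C-type gamma protocadherin of neurons, had the largest difference of all 32 members. In sham it lay between 9.262 and 10.33, with a median of 9.689, and in HF-HI between 10.55 and 11.12, with a median of 10.90. Every HF-HI library was above every sham library. The difference was 1.24 (standard error 0.112, adjusted p = 4.83e-09 from limma), a ratio of 2.37 on this scale. After removal of the GC trend it was 1.11, and without any 1 library it stayed between 1.20 and 1.32. The sham libraries were far more spread (SD 0.370) than the HF-HI libraries (SD 0.162). Sham replicates 1 to 4, the highest for Ctnnd1, lay between 9.26 and 9.37, and the other 6 between 9.59 and 10.33. HF-HI replicates 1 to 5 lay between 10.905 and 11.12, and replicates 6 to 11 between 10.55 and 10.93. The lowest HF-HI value was that of replicate 9, whose GC slope (-0.0385) was the lowest of its group and whose relative depth was 0.572. With the GC trend removed this library was still the lowest of its group, at 10.59. HF-HI replicate 11, with a relative depth of 0.548, was at 10.79 as deposited. The part of slope and depth in these values was not tested.

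Pcdhgc3 (ENSMUSG00000102918, chromosome 18 from 37806364 to 37841873), another C-type gene, had a median of 9.012 in sham (8.651 to 9.340) and of 9.637 in HF-HI (9.450 to 9.819), again without overlap. Its difference was 0.62 (standard error 0.0727, adjusted p = 1.76e-07 from limma), and 0.50 with the GC trend removed. Within libraries, Pcdhgc5 minus Pcdhgc3 was 1.26 ± 0.122 (SD, n = 11) in HF-HI, against 0.643 ± 0.380 (SD, n = 10) in sham, a shift of 0.62 (standard error 0.126) with overlapping groups, between genes that share 2119 exonic bases. Pcdhga11, an A-type gamma gene, rose by 0.34 (adjusted p = 0.00521) and by 0.23 with the trend removed (adjusted p = 0.0395), with overlapping groups of 7.818 to 8.853 in sham and 8.510 to 8.963 in HF-HI.

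The beta member Pcdhb19 fell by 0.19 (adjusted p = 0.00234), from a sham range of 8.876 to 9.192 to an HF-HI range of 8.721 to 9.169, with 9 of 11 HF-HI libraries below every sham library. After removal of the GC trend the difference was -0.076 and not called. The alpha member Pcdhac2, needed for the even spacing of serotonergic axons, was at -0.096 (adjusted p = 0.129) and was not called. It was called without HF-HI replicate 9 (-0.13, adjusted p = 0.0110), which had the highest value of all libraries at 10.52, and with the trend removed (-0.15, adjusted p = 0.0409). Pcdhac2 was also called with library medians centred (-0.15, adjusted p = 0.0251), with quantile normalization (-0.13, adjusted p = 0.0433) and with GC and length trends removed (-0.16, adjusted p = 0.0258).

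The seven-pass cadherins Celsr2 and Celsr3, which guide axons and act with Frizzled receptors in planar polarity, rose side by side. Celsr2 (ENSMUSG00000068740, chromosome 3 from 108390851 to 108415552) had a median of 11.64 in sham (11.40 to 11.94) and of 12.01 in HF-HI (11.85 to 12.29). In 8 of 11 HF-HI libraries it was above every sham library. Celsr3 (ENSMUSG00000023473, chromosome 9 from 108826320 to 108852969) had a median of 10.08 in sham (9.762 to 10.23) and of 10.38 in HF-HI (10.09 to 10.63), above every sham library in 10 of 11. The differences were 0.35 (standard error 0.0651, adjusted p = 7.64e-05 from limma) and 0.34 (standard error 0.0607, adjusted p = 3.82e-05). Within libraries, Celsr2 minus Celsr3 was 1.63 ± 0.110 (SD, n = 11) in HF-HI, against 1.63 ± 0.0956 (SD, n = 10) in sham, a shift of 0.0031 (standard error 0.0448). Both have exons rich in GC (58.57% and 57.67%), and their differences dropped to 0.096 (adjusted p = 0.0472) and 0.12 (adjusted p = 0.0142) with the GC trend removed. They lost their calls when a trend on exonic length was removed as well (0.042 and 0.061).

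Of the Fat genes, which encode very large cadherins, Fat3, a Fat cadherin of neurons, was lower. Its median was 12.98 in sham (12.80 to 13.12) and 12.81 in HF-HI (12.53 to 13.04), with overlap, and the difference was -0.20 (adjusted p = 0.00172). It was -0.18 with the GC trend removed (adjusted p = 0.00347). Fat1 (0.021, adjusted p = 0.735) and Fat4 (-0.026, adjusted p = 0.764) were not called, and the sign of Fat1 turned to -0.031 with library medians centred. With GC and length trends removed Fat1 was called as lower, at -0.12 (adjusted p = 0.026).

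Direction and base composition went together among the members. The median exonic GC content was 53.32% in the 9 higher members and 42.41% in the 10 lower ones, and over all genes it was 51.91% in the higher and 44.21% in the lower. Across the 32 members Pearson's r between difference and exonic GC content was 0.636, and 0.341 with the GC trend removed. Across the 5539 genes with a GC content it was 0.446 and 0.00817. These are correlations across genes from the same libraries and are given as a description. Ctnnb1 and Ctnnd2, picked after the values were seen, have nearly the same exonic GC content, 50.23% and 50.48%, and differences of opposite sign. The part of GC content in the differences was not tested. For exonic length on a log2 scale, r across the members was -0.0186.

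**Figure D3:**
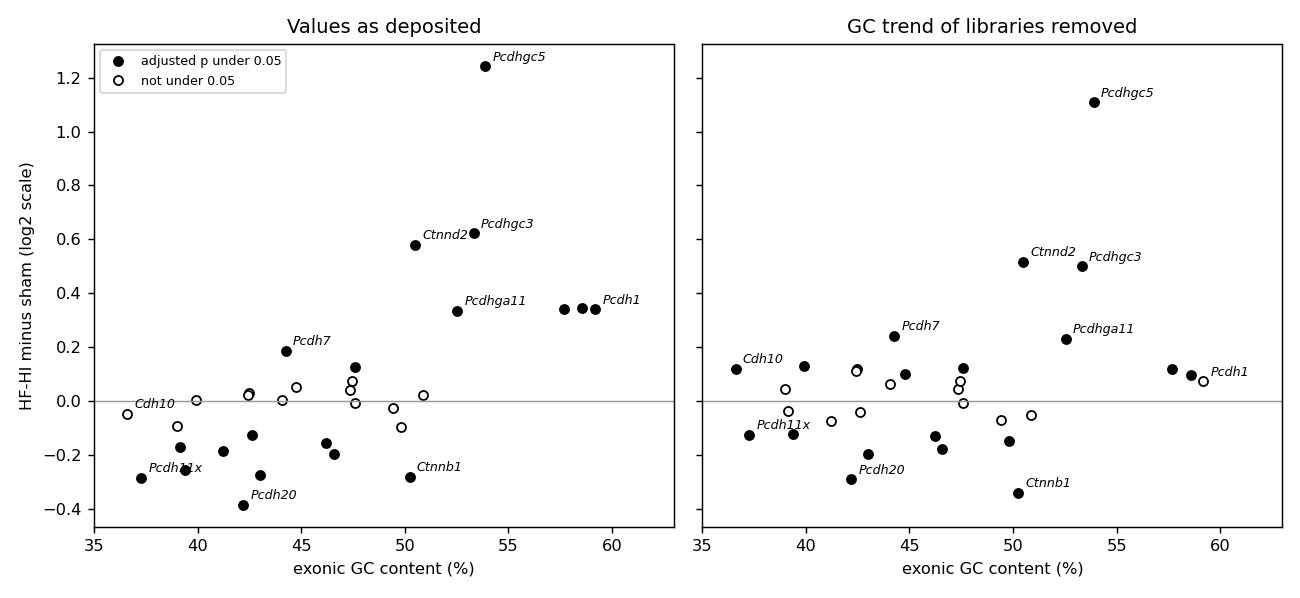
Difference between HF-HI and sham (log2 scale) against exonic GC content (%) for the 32 members, as deposited on the left and after removal of the GC trend on the right, filled where the adjusted p is under 0.05. On the left r is 0.636 and on the right 0.341, and Ctnnd2, Pcdhgc3 and Pcdhgc5 are the highest points in both panels.

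Genes that work with these families were counted from 8 lists. Of 86 listed genes in the table, each counted once, 56 were called, 30 higher and 26 lower, which is 65.1% where 66.3% of all genes were called. With the GC trend removed, 51 were called, 29 higher and 22 lower. Among partners of catenins at junctions, 4 were higher, 7 lower and 5 not called of 16. The largest differences in that list were those of Tjp1, the junction scaffold ZO-1, at 0.26 (adjusted p = 6.23e-08), and Arhgap32 at 0.25 (adjusted p = 1.41e-07). The list had 6 called genes with the trend removed. Of 13 genes of beta-catenin turnover and Wnt signaling, 6 were higher and 4 lower.

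Gsk3b, the kinase that marks beta-catenin for destruction, rose by 0.39 (adjusted p = 2.32e-08), and lay between 11.81 and 12.08 in sham and between 12.21 and 12.46 in HF-HI, without overlap. After removal of the GC trend its difference was 0.43. Csnk1e, another kinase of Wnt signaling, rose by 0.48 (adjusted p = 6.02e-08), and by 0.31 with the trend removed. In the planar cell polarity list, 3 of 7 were higher and 2 lower, where 32.6% of all genes were higher and 33.6% lower. Its largest differences were those of the formin gene Daam2 at 0.57 (adjusted p = 2.10e-08) and of Prickle2 at 0.41 (adjusted p = 2.72e-08), an intracellular planar polarity protein. Among 11 Fat and Hippo pathway genes, 3 were higher and 2 lower, against the same shares of all genes. Nf2, which encodes merlin, was at 0.29 (adjusted p = 2.18e-08) and Wwc2 at 0.17 (adjusted p = 0.00135). Wwc2 was at 0.13 with the GC trend removed. It was at 0.066 and not called with GC and length trends removed (adjusted p = 0.213).

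Of 15 effectors of protocadherins, 8 were called higher and 3 lower, where 32.6% of all genes were higher and 33.6% lower, and the difference between the list and the table was not tested. The largest differences in it were those of the WAVE complex genes Cyfip2 at 0.48 (adjusted p = 1.18e-07) and Wasf3 at 0.35 (adjusted p = 2.03e-06). In the list on cleavage and trafficking of cadherins, 2 of 9 were higher and 4 lower, where 66.3% of all genes were called. Zdhhc5, a palmitoyltransferase that modifies delta-catenin, rose by 0.28 (adjusted p = 1.64e-06), and Rab11a, of the recycling endosome, fell by 0.26 (adjusted p = 5.28e-05). With the GC trend removed, Zdhhc5 was at 0.24 and Rab11a at -0.14. With GC and length trends removed, Zdhhc5 stayed called at 0.24, and Rab11a was at -0.059 and not called (adjusted p = 0.1). Of 12 regulators of the clustered protocadherin locus, 3 were higher and 4 lower, beside the same 66.3% of all genes called. The cohesin subunit genes Rad21 and Stag1 moved apart, at 0.29 (adjusted p = 3.42e-07) and -0.30 (adjusted p = 9.37e-08), each without overlap between the groups. With the GC trend removed, Rad21 was at 0.31, still without overlap, and Stag1 at -0.17, with overlapping groups. Ctcf, whose product acts in promoter choice of the clusters together with cohesin and which was picked here after its value was seen, rose by 0.25 (adjusted p = 2.21e-05). Of the 3 calsyntenin genes, which are cadherin relatives outside the rule, Clstn2 was higher at 0.30 (adjusted p = 8.58e-06).

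**Figure D4:**
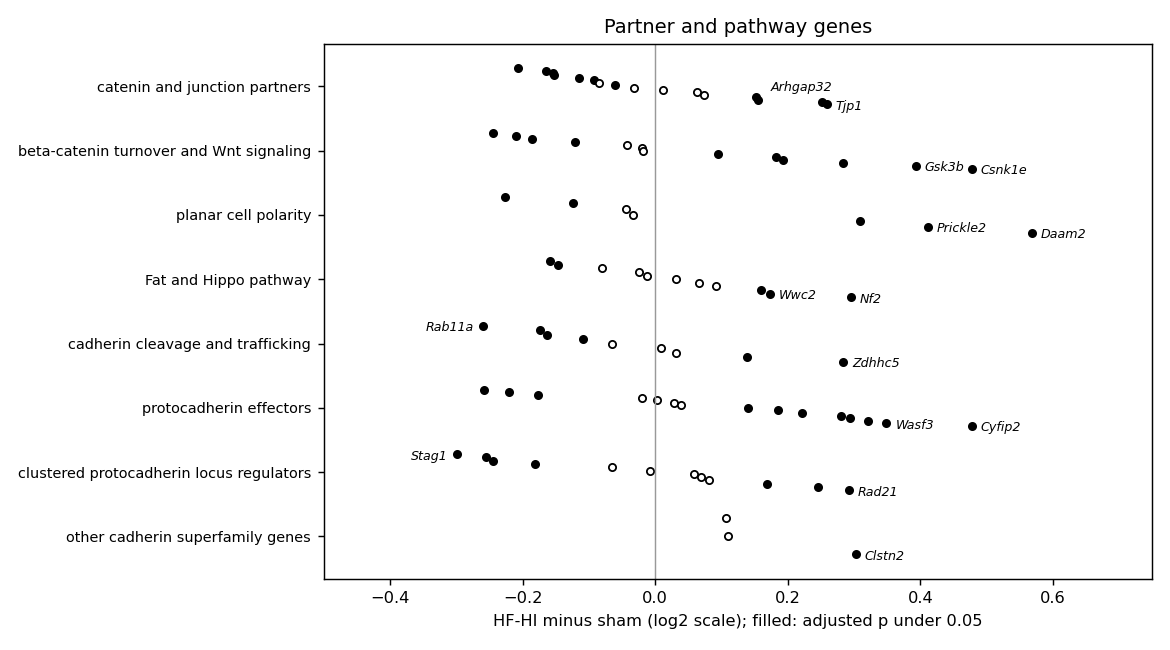
Difference between HF-HI (n = 11) and sham (n = 10) on the log2 scale for the listed partner and pathway genes, 1 point per gene, filled where the adjusted p is under 0.05; the most changed called genes of each list are named. Each list but the last holds filled points on both sides of 0, from -0.30 for Stag1 to 0.57 for Daam2.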

How the data were processed

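Cortex RNA of 10 sham and 11 HF-HI mice was sequenced, one library per mouse, and samples were grouped by their labels. The authors prepared stranded total RNA libraries after ribosomal RNA removal, aligned reads to mm10 with STAR, used eXpress to count reads for each transcript, and applied DESeq2 for normalization; versions are not given in the sources used here. The table they deposited holds variance-stabilized log2 values from 4.59 to 17.7 under Ensembl gene identifiers, and how it was reduced to 5544 genes is not fully stated in the sources used here. The count test of the study needs counts, which were not analysed here, and total depth is unknown. The spread between mice limits precision (median SD in a group 0.122 for the members, 0.104 for all genes).

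Symbols, positions and exonic GC content, over the union of exons, came from GENCODE M21 (GRCm38, the assembly of mm10), with a symbol for 5539 and a GC content for 5539 of 5544 genes, and promoters from RefSeq. No protein sequences were used. HF-HI was compared with sham with limma 3.58.1 in R 4.3.3, as a two-sided moderated test with eBayes and trend, Benjamini-Hochberg adjusted over all genes and called at an adjusted p under 0.05. The GC trend was removed per library with lowess (span 0.3) on deviations from the mean of all libraries, which would also remove a biological difference that follows GC content. Relative depth came from the spacing of 2 to the power of the value between 500 and 600. Scripts were tested on simulated data. Python 3.11.15 served for the other steps.

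Members and lists were chosen with earlier results of these data known. Genes named in full are, in each subfamily, the 2 called members with the largest absolute difference and all members of subfamilies of 3 or fewer. Partners named are the 2 called genes with the largest absolute difference in each list. Other members are given by difference and adjusted p or by range. The paralog pairs, the values shown beyond this rule and the mention of Ctcf were chosen after the values were seen. Alternative settings were an adjusted p under 0.1, eBayes with no trend, a Wilcoxon rank-sum test, library medians centred, quantile normalization, the lowest quartile of mean values left out, a block for the replicate number, the GC trend taken out with or without that block, GC and length trends both taken out, relative depth as a covariate, and each library left out in turn.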

Additional observations from a re-analysis of the deposited data

Results flagged for a closer look

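In the sham group, the only one small enough for this check, 2 of 32 members had a library set apart from the others by a gap that took an unusually large share of the range. Cdh11 was 9.753 in sham replicate 9, where the next lowest sham library was at 9.948, a gap of 0.485 of the range. Pcdh17 was 10.69 in sham replicate 5, where the next highest was at 10.47, a gap of 0.526 of the range. Chance alone gives such a gap in about 1 of 20 groups. Cdh11 stayed called, and Pcdh17 stayed uncalled, with each library left out.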

How the results depend on the processing

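The number of members called was 19, between 14 and 21 over the other settings and between 18 and 20 with each library left out. Leaving out the lowest quartile of mean values, which takes away 7 of the members, left 6 lower members in place of 10, 2 type II cadherins, 0 delta-2 and other protocadherins, 2 clustered protocadherins and 3 cleavage and trafficking genes. Removing the GC trend gave 1 type I cadherin, 2 delta-2 and other protocadherins, 6 junction partners, 6 Wnt genes and 2 other superfamily genes. With the GC trend removed and the replicate number as a block, 2 delta-2 and other protocadherins, 2 clustered protocadherins, 6 junction partners and 5 Wnt genes were called. Relative depth as a covariate gave 1 type I cadherin. The other superfamily genes were 2 at an adjusted p under 0.1, with the Wilcoxon test and with the block, and 1 to 3 with each library left out.

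No member called as deposited reversed under any setting. Cdh10 turned to 0.12 with the GC trend removed, 0.13 with the block as well and 0.075 with GC and length trends removed, and Cdh12 to 0.043, 0.037 and 0.022. Fat1 turned to -0.050, -0.067 and -0.12 under these (the last called, adjusted p = 0.026), to -0.031 with medians centred and to -0.0078 with quantile normalization. Centred medians gave -0.011 for Ctnnd1, -0.021 for Pcdh9, -0.048 for Pcdh10, -0.031 for Pcdh15 and -0.047 for Pcdh17, and quantile normalization -0.022 for Pcdh10, -0.041 for Pcdh15 and -0.017 for Pcdh17. With depth as a covariate Pcdh17 was -0.0016 and Fat4 0.017. With each library left out, the differences ran from -0.015 to 0.023 for Pcdh10, -0.011 to 0.041 for Pcdh15, -0.0082 to 0.040 for Pcdh17, -0.030 to 0.029 for Pcdh19, -0.0068 to 0.045 for Fat1 and -0.059 to 0.018 for Fat4. Beyond the trends and scalings themselves, the cause was not tested.

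The replicate number as a block left 18 members called, losing Cdh11 (-0.11, adjusted p = 0.0793). Same-numbered libraries of the groups correlated between -0.310 and 0.364 in their deviations. In 0 of 10 cases did a sham library correlate best with its own number. The labels do not say what the numbers stand for, and whether they mark shared handling or sequencing runs was not tested.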
